A study of Homo sapiens with 6 samples.

Results

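The miR-221 and miR-222 probes were examined in HuH7 cells, a long-established line from a human hepatocellular carcinoma, after treatment with cisplatin, a platinum drug that crosslinks DNA. The members were chosen by name, as the probes for the 5p and 3p arms of miR-221 and miR-222, which gave 4 of the 2019 human miRNA probes on the array. The 3 cisplatin samples had received 1 µg/ml of the drug for 24 h, and the 3 control samples had received none for the same 24 h. All 6 samples came from this 1 cell line, and total RNA of each was labelled with Hy5 and hybridised to an array with 1 colour. Samples are numbered within each group, without word of whether they were separate cultures. The p-values therefore cover the spread of these samples alone, and that spread may be technical. Whether control cells received the drug's solvent is not given in the sources used here.

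MicroRNAs are short RNAs that guide Argonaute proteins to messenger RNAs and lower their output, mainly through pairing of the seed near the 5′ end. miR-221 and miR-222 are processed from neighbouring hairpins of a shared primary transcript, and in most tissues the 3p arm of each is the abundant one. They are known for repressing the cell cycle inhibitor CDKN1B (p27) and the receptor KIT, and for being raised in liver cancer. Endothelial cells also use them.

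RefSeq (GRCh38.p14) lists mature sequences for 3 of the 4 members, miR-221-5p being the other. They are shown because both 3p arms carry the same seed, the stretch that pairs with targets. Capitals mark the seed, bases 2 to 8.
hsa-miR-221-3p: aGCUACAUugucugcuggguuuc
hsa-miR-222-3p: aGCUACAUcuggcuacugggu
hsa-miR-222-5p: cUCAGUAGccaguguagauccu
The 3p arms are identical over their first 8 bases. Counted from the 5′ end without gaps, they match at 11 of 21 positions. Of 2370 mature human miRNAs in the RefSeq table, 2 carry the seed GCUACAU, and they are these 3p arms. The seed of miR-222-5p was found in 1 mature sequence, its own.

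The hairpins lie on the minus strand of the X chromosome at chrX:45746157-45746266 for MIR221 and chrX:45747015-45747124 for MIR222, with 748 bases between them. The span of the long non-coding RNA gene MIR222HG, chrX:45745214-45770267, contains both. The hairpins are shown to place the arms that the probes measure, with the listed mature sequences in capitals.
hsa-mir-221: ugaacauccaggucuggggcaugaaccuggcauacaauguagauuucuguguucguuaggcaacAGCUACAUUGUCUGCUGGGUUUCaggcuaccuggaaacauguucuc
hsa-mir-222: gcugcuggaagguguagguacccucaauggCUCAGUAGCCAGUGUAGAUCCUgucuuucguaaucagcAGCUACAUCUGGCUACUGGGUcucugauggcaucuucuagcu

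A probe was counted as detected on an array when its spot lay more than 2 SD over the mean signal of that array's 925 blank spots. This limit lay between 208.6 and 246.5 scanner units on the cisplatin arrays and between 220.1 and 239.8 on the control arrays. Detected human probes numbered 329 to 713 on cisplatin arrays and 500 to 738 on control arrays, and the median raw signal of all human probes was 202 to 226 and 214 to 227. Cisplatin replicate 2 had the fewest detected probes. The number of arrays limits the precision of every value below. miR-122-5p, the defining miRNA of hepatocytes, was detected on all 6 arrays, at 4337 to 4901 units after cisplatin and 4739 to 5169 in control. Its normalised log2 difference was -0.21 (SE 0.050, limma adjusted p = 0.129), which did not pass. Its 3 control values were identical after the quantile step, which makes that SE too small.

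Both 3p arms were detected on all 6 arrays and both 5p arms lay close to the blank spots. Levels of different probes cannot be set against each other on an array, so each probe is compared only with itself.

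The raw foreground of miR-221-3p (MIMAT0000278) was 629, 814 and 799 units in cisplatin replicates 1, 2 and 3, against 518, 632 and 649 units in control replicates 1, 2 and 3. Replicate 1 was the dimmest array of each group for this probe, and the raw groups overlapped because cisplatin replicate 1 lay below 2 of the control arrays. Raw groups without overlap and with cisplatin higher occurred for 9.57% of tested probes. Within every same-numbered pair the cisplatin array was brighter, by 111, 182 and 150 units. After subtraction of the local background, the ratio of cisplatin to control was 1.31 in pair 1, 1.36 in pair 2 and 1.31 in pair 3. The ratio was above 1 in all 3 pairs. Before normalization between arrays, the median log2 difference of the 324 tested probes was 0.071, so tested probes as a whole were also somewhat brighter on the cisplatin arrays.

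The raw foreground of miR-222-3p (MIMAT0000279) was 372, 414 and 449 units in cisplatin replicates 1, 2 and 3, against 339, 406 and 363 units in control replicates 1, 2 and 3. The groups overlapped, with control replicate 2 above cisplatin replicate 1. The background-subtracted ratios of cisplatin to control were 1.21, 1.03 and 1.42 in pairs 1, 2 and 3. They spread more widely than those of miR-221-3p, and pair 2 was close to equality.

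The raw foreground of miR-221-5p (MIMAT0004568) was 210, 215 and 227 units in cisplatin replicates 1, 2 and 3, against 227, 222 and 250 units in control replicates 1, 2 and 3. It cleared the blank limit on 1 of the 3 cisplatin arrays and on 2 of the 3 control arrays. The cisplatin array was the dimmer one in each pair, by 17, 7 and 23 units. Blank spots of single arrays had SDs from 10.6 to 18.0 units, a spread between spots and not between samples.

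**Figure D1:**
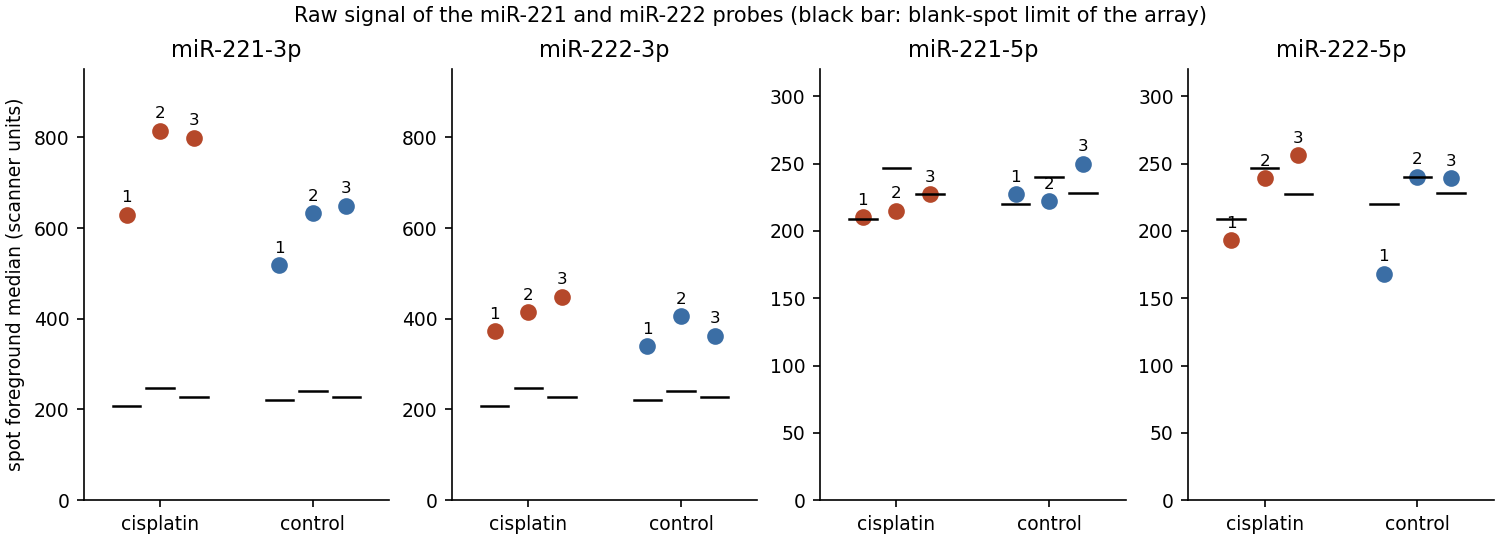
Raw spot foreground (scanner units, axis from 0) of the 4 probes in cisplatin and control arrays, with points numbered by replicate and a black bar at each array's blank-spot limit. The axis ranges of the 3p and 5p panels differ. Every 3p point lies above its bar, while the 5p points lie around theirs.

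The raw foreground of miR-222-5p (MIMAT0004569) was 193, 239 and 256 units in cisplatin replicates 1, 2 and 3, against 168, 240 and 239 units in control replicates 1, 2 and 3. It too passed the limit on 1 of 3 cisplatin and 2 of 3 control arrays, in control replicate 2 by 0.17 units. Control replicate 1 stood apart, at -2.32 blank SDs from the mean of the blank spots. With a limit from blank spots trimmed by 5% at each end, each 5p arm was detected on 2 of 3 arrays in each group. Neither 5p arm met the filter for testing, which asked that a probe be detected on every array of 1 group or both, and so they have values without a test.

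The question of the series, which miRNAs differ after cisplatin, was tested across the 324 probes that met this filter, 2 of the 4 members among them. Signals were background-corrected, quantile-normalised and put on the log2 scale, and groups were compared with limma. Of all tested probes, 0.309% passed at an adjusted p of 0.05. That is 1 of 324, miR-1304-3p, named here after its values were seen, and 0 with the replicate number as a block. This probe was detected on 3 cisplatin and 0 control arrays, so it met the filter through the cisplatin group alone. When detection on all 6 arrays was required, 0 probes passed. Of the 2 tested members, 0 passed. At an unadjusted p under 0.05 there was 1 of the 2, while 15.7% of all tested probes reached that level, and 8.02% reached it and were higher.

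On the normalised log2 scale miR-221-3p stood at 9.22, 9.20 and 9.29 in cisplatin replicates 1, 2 and 3, against 8.96, 9.02 and 9.08 in control replicates 1, 2 and 3. Every cisplatin value lay above every control value, as was so for 8.64% of the tested probes. The group means were 9.24 ± 0.048 after cisplatin and 9.02 ± 0.060 in control (SD, n = 3 each). The log2 difference was 0.22 (SE 0.056, 95% interval 0.076 to 0.35), with a limma unadjusted p of 0.00971 and an adjusted p of 0.143, so it did not pass. This is a 1.16-fold difference, smaller than the raw ratios above. Without normalization between arrays the log2 difference was 0.36. With a smaller added offset, 16 in place of 50, and the quantile step it was 0.23. By size it was the 36th highest difference of 324 and by p the 22nd smallest.

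On the same scale miR-222-3p stood at 8.23, 8.02 and 8.27 in cisplatin replicates 1, 2 and 3, against 8.06, 8.11 and 7.95 in control replicates 1, 2 and 3. The groups overlapped because cisplatin replicate 2 lay below 2 of the control arrays. The means were 8.17 ± 0.14 after cisplatin and 8.04 ± 0.079 in control (SD, n = 3 each). The log2 difference was 0.13 (SE 0.088, 95% interval -0.086 to 0.35, limma adjusted p = 0.566), within an interval that holds both 0 and the value of miR-221-3p. When single arrays were left out it ranged from 0.084 without cisplatin replicate 3 (limma adjusted p = 0.876) to 0.21 without cisplatin replicate 2 (limma adjusted p = 0.229).

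**Figure D2:**
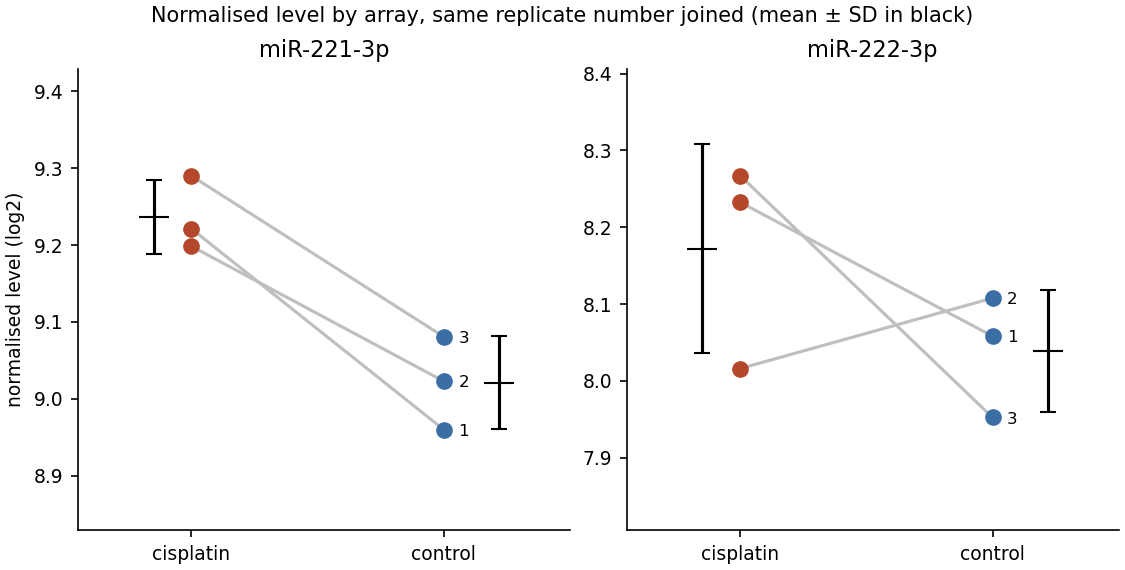
Normalised log2 level of the 3p arms in cisplatin and control arrays, with grey lines joining arrays of the same replicate number and the mean ± SD of 3 arrays in black. All 3 lines of miR-221-3p run from higher cisplatin to lower control values, and the line of replicate 2 runs the other way for miR-222-3p.

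The same-numbered pairs gave log2 differences of 0.26, 0.18 and 0.21 for miR-221-3p in pairs 1, 2 and 3. Of all tested probes, 19.1% were higher in the cisplatin array of 3 of 3 pairs. For miR-222-3p the pair differences were 0.17, -0.092 and 0.31, and so 2 of 3 pairs were higher. The change of miR-221-3p exceeded that of miR-222-3p by 0.083 on the log2 scale. The within-array difference between the probes had SDs of 0.10 in cisplatin and 0.13 in control arrays, and an exact two-sided permutation test on it gave p = 0.5 (n = 3 each, with 0.1 the lowest p that this design allows).

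Ranks within an array do not depend on scaling, though they are no order of abundance. Counted from the brightest human probe, miR-221-3p held ranks 56, 55 and 54 in cisplatin replicates 1, 2 and 3, against ranks 72, 66 and 62 in control replicates 1, 2 and 3. Its ranks did not overlap between groups, with the cisplatin arrays nearer the top, and 10.2% of tested probes behaved in this way. miR-222-3p held ranks 105, 117 and 103 in cisplatin and 118, 113 and 120 in control replicates 1, 2 and 3. Its groups overlapped at replicate 2, where the cisplatin array ranked below the control array.

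**Figure D3:**
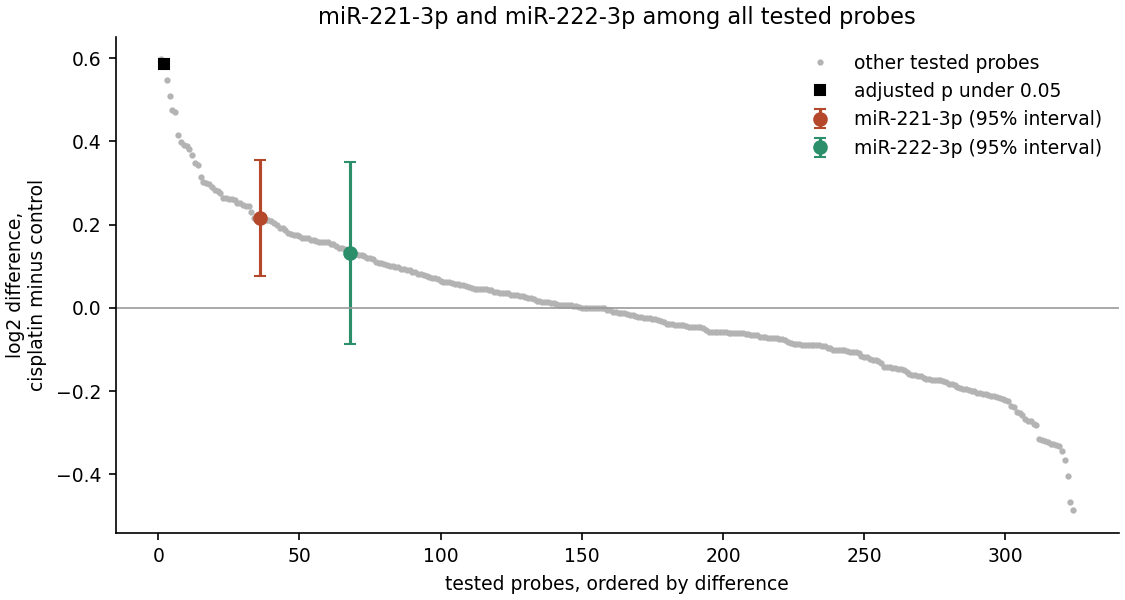
Log2 difference (cisplatin minus control) of the 324 tested probes, ordered from highest to lowest. miR-221-3p (36th) and miR-222-3p (68th) are drawn with limma 95% intervals, and the black square is the 1 probe with an adjusted p under 0.05.

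For the untested 5p arms the normalised log2 difference was -0.12 for miR-221-5p and 0.26 for miR-222-5p. miR-221-5p averaged 6.39 ± 0.23 after cisplatin and 6.51 ± 0.22 in control, and miR-222-5p averaged 6.57 ± 0.34 after cisplatin and 6.30 ± 0.49 in control (SD, n = 3 each). In pairs 1, 2 and 3 the differences were -0.060, -0.12 and -0.17 for miR-221-5p. Those of miR-222-5p were 0.47, 0.056 and 0.26. For miR-221-5p the group difference was smaller than these SDs, and it was 0.014 when cisplatin replicate 2 was left out. The value of miR-222-5p likewise lay within its SDs and rested on control replicate 1, without which it was -0.017. When all 2019 probes were tested without a detection filter, the limma adjusted p was 0.963 for miR-221-5p and 0.955 for miR-222-5p.

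The 3p probes sit side by side on the array, at columns 10 (miR-221-3p) and 9 (miR-222-3p) of row 1 in block 12, so their local background was measured close together, though it differed on each array, at 124 to 153 units for miR-221-3p and 133 to 162 for miR-222-3p after cisplatin and at 131 to 145 and 141 to 162 in control. The other 11 tested probes of that block had a median log2 difference of 0.021 and ran from -0.33 to 0.35, with 7 of 11 positive. Over all tested probes the median was -0.012, and 47.8% were positive. The 5p probes lie in blocks 23 (miR-221-5p) and 5 (miR-222-5p).

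Each array's scan carries a cell number, which was read here as its slide position. On this reading, position and group cannot be told apart. Cisplatin replicates 1, 2 and 3 lay at positions 4, 2 and 4. Control replicates 1, 2 and 3 lay at positions 3, 1 and 3. Replicate 2 of both groups was at positions 1 and 2, whereas replicates 1 and 3 were at positions 3 and 4. For miR-221-3p the log2 difference was 0.18 between the arrays of positions 2 and 1, with no test, and 0.22 among the arrays of positions 4 and 3 (limma adjusted p = 0.406). For miR-222-3p it was -0.092 between the arrays of positions 2 and 1 and 0.23 among those of positions 4 and 3 (limma adjusted p = 0.406). With this division as a block the adjusted p was 0.238 for miR-221-3p and 0.612 for miR-222-3p.

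Under the scalings tried, the differences kept their sign and varied in size. miR-221-3p ran from 0.14 with cyclic loess to 0.39 with the 75th percentile, and miR-222-3p from 0.031 with spike spot scaling to 0.24 with the 75th percentile. With the authors' deposited table, which also differs in background step and in the 296 probes tested, they were 0.44 and 0.34. Several scalings also moved the median of all tested probes, to 0.095 with the 75th percentile, -0.11 with spike spots and 0.14 with the authors' values. The 75th percentile and spike spots each shift all probes of an array by a constant. The value relative to that median is therefore the same under both by construction, 0.29 for miR-221-3p and 0.14 for miR-222-3p. With the authors' values it was 0.30 and 0.20. With cyclic loess, which is no constant shift, it was 0.16 and 0.10. The cisplatin and control values of miR-221-3p remained apart with median scaling, the 75th percentile and cyclic loess, and overlapped without normalization, with spike spots and in the authors' values. The limma interval of miR-221-3p ran from negative to positive with cyclic loess (-0.065 to 0.34) and spike spots (-0.23 to 0.60). It did so too without normalization (-0.0044 to 0.73) and with the authors' values (-0.11 to 0.999). It was positive throughout with median scaling (0.012 to 0.54) and the 75th percentile (0.088 to 0.69). For miR-222-3p the interval ran from negative to positive under each of these.

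**Figure D4:**
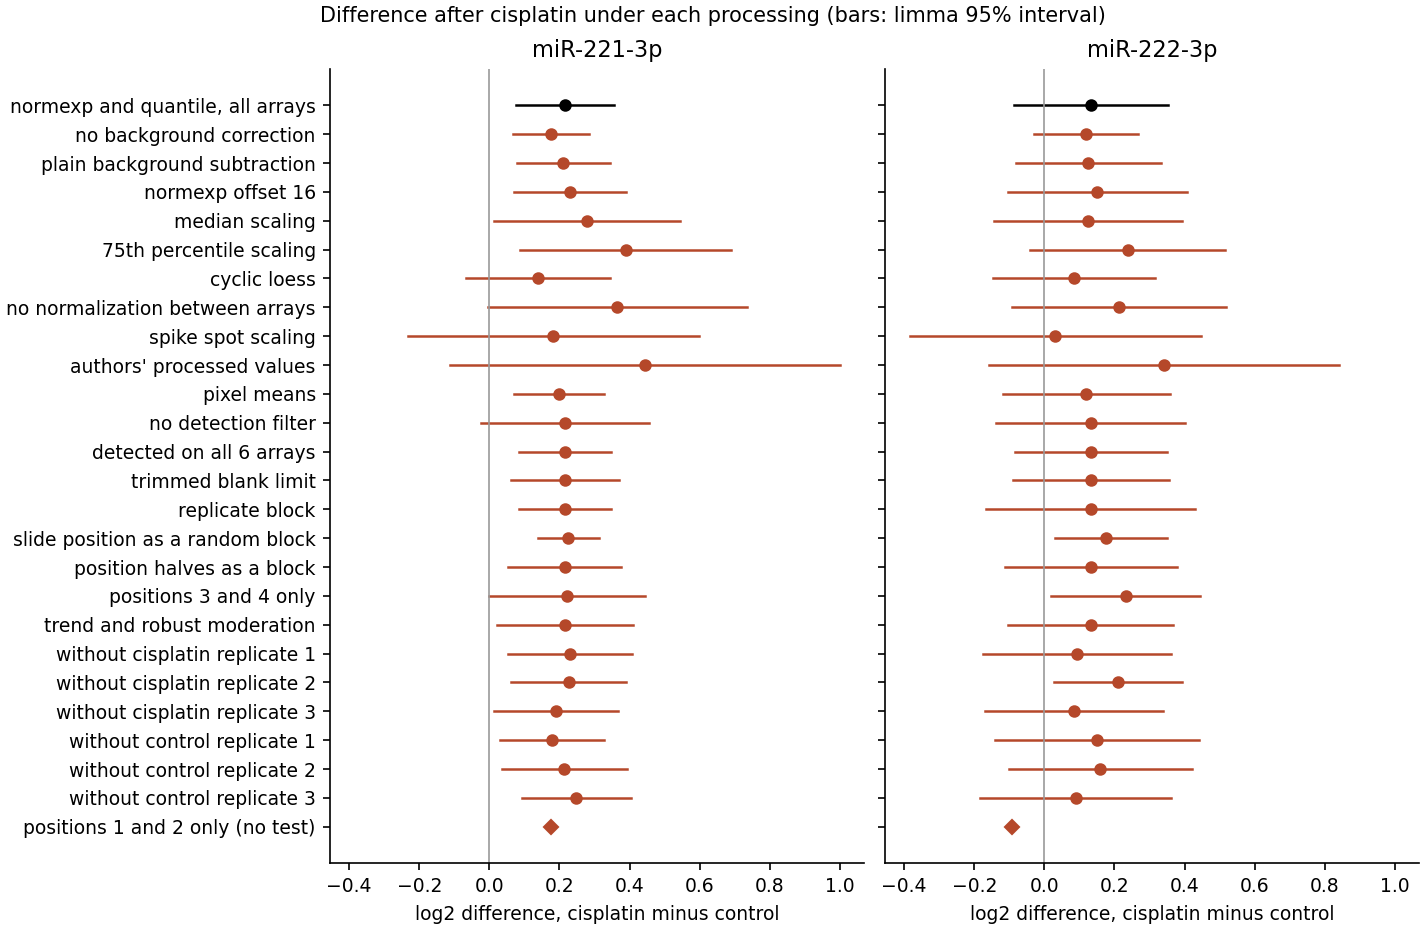
Log2 difference (cisplatin minus control) of the 3p arms under each processing, with limma 95% intervals; the diamond is a value from 1 array a group with no test. All points of miR-221-3p lie above 0, from 0.14 to 0.44, and for miR-222-3p the diamond at -0.092 is the point below 0.

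The authors' deposited table lists miR-221-3p at 416.8, 602.9 and 607.2 in cisplatin replicates 1, 2 and 3, against 323, 389.9 and 482.5 in control replicates 1, 2 and 3. In the authors' deposited table miR-222-3p has 176.1, 203.7 and 249.6 in cisplatin replicates 1, 2 and 3, against 143.4, 179.8 and 170.6 in control replicates 1, 2 and 3. All 3 pairs of both probes are higher in the cisplatin array there, and the share of all probes for which this holds was not counted. The 296 probes tested with these values were also higher as a whole, with a median log2 difference of 0.14. The authors' deposited table does not list miR-221-5p in replicate 2 of either group, nor miR-222-5p in replicate 1 of either group.

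Profiles over the 6 arrays were compared by the root mean square difference between log2 levels, each centred on its probe's mean. The 5 tested probes nearest to miR-221-3p were miR-30b-5p (0.026), miR-3621 (0.058), miR-1247-3p (0.063), miR-145-5p (0.068) and miR-146a-5p (0.071). Their mean normalised levels ran from 6.93 for miR-1247-3p to 9.44 for miR-30b-5p, and miR-221-3p stood at 9.13. The median over the 323 other tested probes was 0.18. miR-30b-5p had the nearest profile, and its log2 difference was 0.24 (SE 0.059, limma adjusted p = 0.129). miR-222-3p was the 25th nearest, at 0.10.

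The 5 nearest to miR-222-3p were miR-92b-5p (0.046), miR-4758-3p (0.050), miR-145-5p (0.055), miR-101-3p (0.060) and the probe shared by miR-365a-3p and miR-365b-3p (0.073). At mean normalised levels of 6.80 to 7.30, these 5 lay nearer the blank spots than miR-222-3p, at 8.11. Of them, miR-101-3p was detected on 2 of 3 cisplatin arrays. The median over the 323 other tested probes was again 0.18, and miR-221-3p was the 17th nearest. miR-145-5p stood in both sets of 5. All profiles share the same 6 arrays and their normalization, and likeness over so few arrays is a description only.

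**Figure D5:**
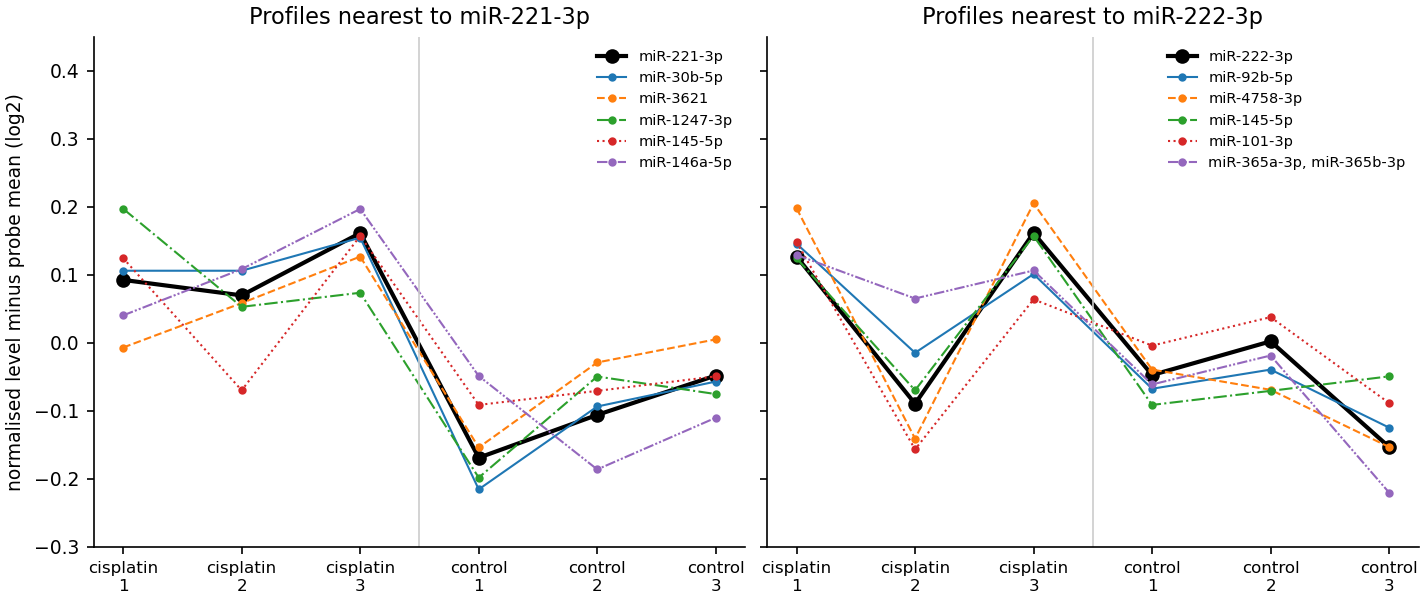
Normalised log2 level minus the probe's mean, in cisplatin and control arrays, for miR-221-3p and miR-222-3p (black) and the 5 probes nearest to each. The lines join samples only to guide the eye. Cisplatin replicate 2 is below 0 for miR-222-3p and above 0 for miR-221-3p.

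Other miRNAs described as repressing the same targets were read for comparison. For CDKN1B, the p27 inhibitor of cyclin-dependent kinases, 5 of 5 listed miRNAs were tested, 2 positive and 3 negative, with 0 passing and a median log2 difference of -0.063. The brightest were miR-24-3p at 0.39 (SE 0.11, limma adjusted p = 0.167), miR-196a-5p at -0.20, miR-148a-3p at -0.19 and miR-181a-5p at 0.065. The raw signal of miR-24-3p was 1043 to 1242 units after cisplatin and 652 to 901 units in control. These groups did not overlap, with cisplatin higher, as was so for 9.57% of tested probes. The raw groups of the other 3 overlapped.

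For KIT, the stem cell factor receptor, all 3 were tested, at 0.0020 for miR-494, 0.31 for miR-34a-5p and 0.18 for miR-193b-3p. Of these, 0 passed, and the median was 0.18 against -0.012 for all tested probes.

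Of 15 other miRNAs described as raised in hepatocellular carcinoma, 11 were tested, 5 positive and 6 negative, and 0 passed. Their median was -0.057, with a range from -0.49 to 0.38. The lowest value came from a probe near the blank spots, detected on 0 cisplatin and 3 control arrays, at 162 to 216 and 230 to 243 units. The brightest were miR-21-5p (0.38), miR-106b-5p (-0.057), miR-93-5p (-0.14) and miR-25-3p (-0.058).

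The CLCN5 cluster, another set of miRNAs on the short arm of the X chromosome, had 4 of 15 probes tested and 2 that were detected on 0 arrays. The tested ones were miR-362-5p (-0.065), miR-660-5p (0.16), miR-532-5p (-0.013) and miR-362-3p (0.011), with a median of -8.8e-04 and 0 passing.

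Of the hepatocyte markers, 5 of 5 were tested, 1 positive and 4 negative, with a median log2 difference of -0.19 and 0 passing. miR-122-5p (-0.21) and miR-122-3p (-0.37, SE 0.072, limma adjusted p = 0.129) were lower after cisplatin in the normalised values. Their raw groups overlapped, miR-122-3p at 280 to 326 units after cisplatin and 303 to 372 in control. At an unadjusted limma p under 0.05, 25 of the 324 tested probes were lower, these 2 among them. The other hepatocyte markers were miR-194-5p (0.021), miR-192-5p (-0.058) and miR-148a-3p (-0.19). The summed raw signal of the 5 was 8087 to 10224 units after cisplatin and 8051 to 9468 units in control, and their part in the differences of the members was not tested.

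Of the endothelial markers, miR-126-3p was detected on all 6 arrays, at 281 to 346 units after cisplatin and 251 to 325 in control, with a log2 difference of 0.046 (SE 0.13, limma adjusted p = 0.926). miR-126-5p was detected on 0 of 3 cisplatin arrays and 1 of 3 control arrays. The summed raw signal of these 2 probes was 476 to 573 units after cisplatin and 468 to 570 units in control. Stromal and smooth muscle markers had 3 of 5 probes tested and summed to 1131 to 1252 units after cisplatin and 1123 to 1226 units in control. Blood cell markers had 0 of 6 tested and summed to 1272 to 1393 units after cisplatin and 1306 to 1473 units in control. The groups overlapped in all 4 marker sums, which include background.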

How the data were processed

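The deposited scanner files of 6 arrays give linear intensity, with pixel medians and pixel means for each spot and for the background around it, per the file headers. RNA was labelled with a commercial kit, per the labels' protocols. The sources used here name neither scanner nor software nor probe sequences. No spot was flagged among the 3200 of any array. The authors' deposited table holds processed intensity, equal to the foreground minus the trimmed mean of blank spots divided by 1 factor per array (largest relative residual 4.75e-10, by comparison with the scanner files), and served as an alternative.

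Medians were corrected with normexp (offset 50), quantile-normalised over the 2019 human probes, of which 15 carry several names, and fitted with lmFit and eBayes (residual degrees of freedom 4, prior 1.52) in limma 3.58.1 under R 4.3.3. Benjamini-Hochberg adjustment ran over 324 probes at 0.05. Figures used matplotlib 3.10.9. On simulated data with many large changes, these steps called more unchanged probes than the threshold implies.

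Named were the 4 members, the 5 nearest profiles of each 3p arm and up to 4 tested probes of each list by mean level. Members and lists were chosen with earlier results of these data known. Deviations from the group means were positively correlated between same-numbered samples (correlations of 0.44, 0.24 and 0.20 over tested probes), so values of same-numbered pairs were described. Cisplatin 2 and control 3 correlated too (0.23). The main limma fit was unpaired, and pairing entered a test only in the alternative with the replicate number as a block. A list of miRNAs that share another target is not reported here.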

Additional observations from a re-analysis of the deposited data

How the results depend on the processing

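Background correction, scaling between arrays, the detection filter, blocks, moderation and left-out arrays were varied. miR-221-3p was positive under all 25 alternatives (0.14 to 0.44) and passed in 1 of the 24 with a test, slide position as a random block (0.22, limma adjusted p = 0.0201). The correlation within positions was negative there (-0.62), which shrinks standard errors, and that setting passed 47 probes. miR-222-3p was positive under 24 of 25 and passed under 0 of 24, with 3 at an unadjusted limma p under 0.05. It turned to -0.092 between the 2 arrays at positions 1 and 2. Filters, moderation and fixed blocks could not move these values. Without cisplatin or control replicates in turn, miR-221-3p ran from 0.18 to 0.25 and miR-222-3p from 0.084 to 0.21.

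With the replicate block the limma adjusted p was 0.185 for miR-221-3p and 0.570 for miR-222-3p, and the paired fit changed no call but that of miR-1304-3p. The number of probes that passed was 1, and 3 without background correction, 4 with median scaling, 3 with the 75th percentile and 4 with cyclic loess. It was 0 without normalization between arrays, with spike spots, the authors' values, pixel means, no detection filter, detection on all 6 arrays, the replicate block, positions 3 and 4 alone, and trend and robust moderation. Those limma fits had 33, 13, 23, 39, 97, 39, 57, 38 and 38 probes at an unadjusted p under 0.05. Leave-one-out fits passed 0 to 3 probes, the 3 when cisplatin replicate 2 was dropped, and 0 in the 5 other limma fits (42 to 57 at an unadjusted p under 0.05). The cause of these changes was not tested. The 5p arms lay near the blank spots and have values without a test in the main fit.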
